A study of Rattus norvegicus with 9 samples.

Results

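Smooth muscle contractile genes were examined across primary retinal progenitor cells and 2 kinds of retinal progenitor cells made from rat embryonic stem cells (rESCs). The set held 10 genes, taken with all of their probe sets: Tagln, Acta2, Acta1, Actg2, Cnn1, Myl9, Tpm1, Tpm2, Myh11 and Cald1. They are 10 of the 14217 genes that the array annotation ties to a probe set of their own, and they have 20 such probe sets among them. The measurements came from 9 Affymetrix Rat Genome 230 2.0 arrays, 3 for each cell type. P-RPC were taken from SD rats on postnatal day 1 as neural retina, dissociated with papain, with no sorting described. rESC-RPC1 and rESC-RPC2 both came from the DA rat line DA8-16, so that the results on stem cell-derived cells rest on a single line. Both were grown as serum-free aggregates with Matrigel and the Wnt inhibitor IWR-1e, received FBS from day 8 and were harvested on day 16. rESC-RPC1 were dissociated and plated on day 10 and moved to N2 medium with FBS on day 14, whereas rESC-RPC2 stayed in suspension until day 14. Strain, and tissue as against culture, changed together with cell type in each comparison with P-RPC and cannot be told apart. Medium and time of adherence likewise changed together between rESC-RPC1 and rESC-RPC2.

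Smooth muscle shortens when myosin filaments pull on actin filaments. Phosphorylation of the regulatory light chain encoded by Myl9 switches the myosin on, and tropomyosin, caldesmon and calponin lie along the actin filament and tune the contact. Many of these genes are driven by serum response factor (SRF) with myocardin or the myocardin-related factors, which respond to the state of the actin cytoskeleton. In the retina the contractile set is known from the mural cells of vessels. In culture several members, Tagln and Acta2 among them, are also made by spreading cells that form stress fibres.

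Signals are MAS 5.0 values on a linear scale. The detection threshold was a signal of 123 (log2 6.94), which is the median over all values. Each gene was read from the probe set with its highest mean and was tested where at least 3 of the 9 arrays reached the threshold, which left 9946 genes. Calls needed an adjusted p (limma, Benjamini-Hochberg) under 0.05 and a log2 fold change of at least 1 in size. Of the 10 contractile genes 8 were tested, while Actg2 and Myh11 stayed under the threshold on all 9 arrays. Because the arrays measured bulk RNA, fewer cells of a type and less RNA per cell cannot be told apart. Pax6, the eye field factor that marks retinal progenitors, had a mean of 13972 ± 423 (SD, n = 3) in P-RPC. rESC-RPC1 gave 118 ± 74.3 and rESC-RPC2 84.7 ± 24.0, both means under the threshold, although 1 rESC-RPC1 array reached it. The paper found Pax6 protein in both kinds of rESC-RPCs by staining, and Pax6 RNA by RT-qPCR at lower levels than in P-RPC. Rax fell in the same direction, from 4623 ± 69.6 in P-RPC to 249 ± 124 and 141 ± 74.2. Six6 was lower as well, with means of 4944 ± 84.4, 495 ± 148 and 1429 ± 252, and was called in both kinds of rESC-RPCs. Lhx2, Sox2 and Nes were not called lower in both. Lhx2 (8683 ± 579, 5752 ± 1246 and 3387 ± 369) was called lower only in rESC-RPC2. Sox2 (4936 ± 32.7, 9368 ± 1383 and 6468 ± 181) was not called, and Nes was called higher in rESC-RPC1 (log2 1.02 ± 0.17). Of 9 tested retinal and neural markers, 2 were called higher and 3 lower in rESC-RPC1 (all genes: 12.0% and 9.50%), and 3 and 4 in rESC-RPC2 (10.7% and 12.9%).

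Contractile genes were higher in both kinds of rESC-RPCs than in P-RPC. Tagln, Tpm2 and Cnn1 were under the threshold on every P-RPC array, and Tpm1, Myl9, Acta2 and Cald1 were detected there at lower signals. Acta1 rose in rESC-RPC2 but not in rESC-RPC1. The smooth muscle myosin Myh11 and the enteric actin Actg2 were not detected in any cell type.

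**Figure D1:**
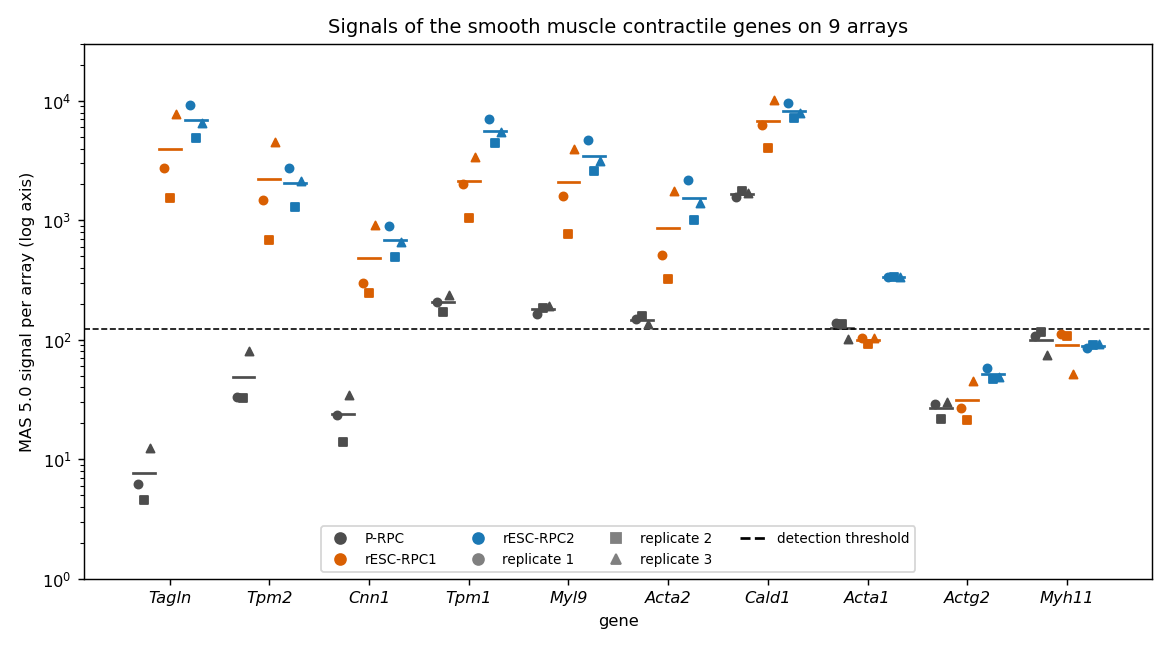
MAS 5.0 signal (log axis) of each contractile gene on every array, with the probe set that represents the gene and, for Actg2 and Myh11, their probe set of highest mean. Colours give the cell type, symbols the replicate, short lines the mean of 3 arrays and the dashed line the detection threshold of 123. All 6 rESC-RPC arrays lay above all P-RPC arrays for Tagln, Acta2, Cnn1, Myl9, Tpm1, Tpm2 and Cald1, whereas for Acta1 only the rESC-RPC2 arrays did.

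Among the actin-binding members, Tagln (transgelin, also called SM22, an actin-bundling protein and an early marker of the smooth muscle lineage) gave signals of 6.18, 4.61 and 12.4 in P-RPC. Its signals were 2721, 1528 and 7731 in rESC-RPC1, and 9319.6, 4897 and 6527 in rESC-RPC2. The P-RPC arrays were near the floor of the scale and far from all the others, while the ranges of the rESC-RPCs overlapped. With P-RPC set to the threshold, Tagln rose at least 25.9-fold in rESC-RPC1 and at least 54.5-fold in rESC-RPC2. The fitted log2 fold changes were 8.81 ± 0.54 (SE, limma, adjusted p = 4.4e-07) and 9.88 ± 0.54 (adjusted p = 2.0e-07).

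Cnn1 (calponin 1, which slows the actomyosin ATPase in differentiated smooth muscle) had P-RPC signals of 23.6, 14.0 and 34.6. It reached 299, 247 and 916 in rESC-RPC1 and 897, 495 and 661 in rESC-RPC2. No P-RPC array reached the threshold and all arrays of the rESC-RPCs did, which puts the rise at 3.32-fold or more in rESC-RPC1 and 5.42-fold or more in rESC-RPC2. Its log2 fold changes were 4.17 ± 0.48 (adjusted p = 3.6e-05) and 4.88 ± 0.48 (adjusted p = 1.1e-05).

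Cald1 (caldesmon, made as a long form in smooth muscle and a short form in most other cells) was the member most strongly detected in P-RPC, with 1583, 1751 and 1697. Its signals were 6289, 4069 and 10174 in rESC-RPC1 and 9624, 7169 and 7910.4 in rESC-RPC2. The groups of rESC-RPCs overlapped each other and cleared P-RPC, by 3.81-fold and 4.88-fold, with log2 fold changes of 1.93 ± 0.26 (adjusted p = 1.0e-04) and 2.29 ± 0.26 (adjusted p = 2.7e-05). A second probe set, 1368824_at, gave 1.85 ± 0.34 and 2.29 ± 0.34 in the fit over all probe sets, and the third, 1368823_at, was under the threshold on every array. The annotation used here does not say which form each probe set reads.

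Among the actins, Acta2 (alpha-smooth muscle actin) gave 149, 158 and 137 in P-RPC, 515, 324 and 1767 in rESC-RPC1, and 2199, 1015 and 1401 in rESC-RPC2. The P-RPC arrays lay just above the threshold and under every rESC-RPC array. Acta2 was 4.51-fold higher in rESC-RPC1 (log2 2.17 ± 0.51, adjusted p = 0.0037) and 9.92-fold higher in rESC-RPC2 (log2 3.31 ± 0.51, adjusted p = 2.3e-04). A further 5 probe sets are assigned to Acta2 together with Actc1, the cardiac actin, and name neither gene alone. 1 of them, 1370856_at, gave 67.2, 121 and 52.1 in P-RPC, 145, 112 and 133 in rESC-RPC1, and 518, 304 and 365 in rESC-RPC2.

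Acta1 (alpha-skeletal muscle actin) behaved unlike the other tested members. Its signals were 138, 136 and 102 in P-RPC and 103, 91.9 and 104 in rESC-RPC1, so that these groups overlapped around the threshold. In rESC-RPC2 they were 333, 339 and 333, the tightest triplet of the set and above all other arrays. Against P-RPC, Acta1 rose 2.70-fold in rESC-RPC2 (log2 1.43 ± 0.17, adjusted p = 4.1e-05). In rESC-RPC1 the log2 fold change against P-RPC was -0.32 (95% confidence interval from -0.70 to 0.06, adjusted p = 0.13). Actg2, the gamma actin of visceral smooth muscle, had signals from 21.4 to 58.2 over the 9 arrays and was not tested.

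The sequences before both alpha-actin genes are shown because SRF binds the CArG box, a run of A and T bases between CC and GG, which is known to drive these genes. RefSeq promoters (GRCr8) were found for 7 of the 10 members, and Tagln, Myl9 and Myh11 were not in the table. Capitals mark boxes with at most 1 core letter other than A or T. The last base printed is the one before the transcription start, and both genes are on the minus strand, at chr1:241172504-241172653 for Acta2 and chr19:68784195-68784444 for Acta1.
Acta2: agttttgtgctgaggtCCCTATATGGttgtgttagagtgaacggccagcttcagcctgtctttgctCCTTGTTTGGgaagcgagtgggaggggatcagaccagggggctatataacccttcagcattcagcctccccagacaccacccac
Acta1: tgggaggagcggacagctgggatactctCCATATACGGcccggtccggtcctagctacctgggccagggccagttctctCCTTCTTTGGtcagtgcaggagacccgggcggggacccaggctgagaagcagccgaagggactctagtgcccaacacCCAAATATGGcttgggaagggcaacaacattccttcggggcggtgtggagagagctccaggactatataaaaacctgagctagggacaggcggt
In the 150 bases shown, Acta2 held boxes that began 134 and 84 bases before the start, each with 1 such letter. Acta1 held boxes that began 222, 171 and 94 bases before the start, and the nearest of these had a core of A and T alone. A complete CArG box, which as a pattern reads the same on both strands, was in the promoter window of 1 of the 7 members, and in 1.64% of all 33469 promoters of 300 bases. With 1 core letter free, a form of search chosen after the sequences had been seen, it was in 2 of 7 members and in 9.42% of all promoters. The windows of Actg2, Cnn1, Tpm1, Tpm2 and Cald1 held neither form. A match describes letters in this window and is not evidence of binding.

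For the myosin members, Myl9 (the regulatory light chain of smooth and non-muscle myosin) had signals of 163, 184 and 193 in P-RPC. They were 1617, 763 and 3944 in rESC-RPC1 and 4701, 2612 and 3123 in rESC-RPC2. Every rESC-RPC array was above every P-RPC array, and the rise was 9.43-fold (log2 3.24 ± 0.46, adjusted p = 1.6e-04) and 18.8-fold (log2 4.23 ± 0.46, adjusted p = 2.2e-05). Myh11, the heavy chain particular to differentiated smooth muscle, was covered by 2 probe sets. 1370896_a_at ranged from 51.8 to 116 and 1381219_at from 4.19 to 22.0, with no array at the threshold in any cell type.

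The tropomyosins rose with the actin-binding proteins. Tpm1, whose transcripts are spliced differently in smooth muscle, striated muscle and non-muscle cells, was represented by 1368724_a_at, with 209, 172 and 238 in P-RPC. This probe set read 2018, 1045 and 3364 in rESC-RPC1 and 7022, 4416 and 5498 in rESC-RPC2. The cell types did not overlap: P-RPC were lowest and rESC-RPC2 highest. Against P-RPC, Tpm1 rose 9.39-fold in rESC-RPC1 (log2 3.23 ± 0.34, adjusted p = 2.1e-05) and 27.1-fold in rESC-RPC2 (log2 4.76 ± 0.34, adjusted p = 1.2e-06).

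All 7 probe sets of Tpm1 were called higher in each kind of rESC-RPCs than in P-RPC. 3 of them, 1370513_at, 1371240_at and 1371241_x_at, were under the threshold on all P-RPC arrays, so that their rise is at best known as a lower bound. In rESC-RPC1, 1370513_at and 1371240_at reached the threshold on only 1 array each, and no such bound can be given. For 1371240_at the arrays of rESC-RPC1 and P-RPC also overlapped. 1371241_x_at was under the threshold in P-RPC at 41.2, 73.5 and 44.8 and reached 8716, 5316 and 6842 in rESC-RPC2, at least 55.6-fold more. Its suffix marks probes that may also bind other transcripts. The faintest, 1371240_at, reached 184, 157 and 141 in rESC-RPC2, a rise of at least 1.30-fold, and 1370513_at rose at least 1.62-fold. Probe sets of a gene share its RNA and are not replicates.

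Tpm2 (beta-tropomyosin) had 33.3, 32.6 and 81.4 in P-RPC, 1493, 682 and 4526 in rESC-RPC1, and 2737, 1289 and 2137 in rESC-RPC2. The rESC-RPC2 arrays fell inside the range of rESC-RPC1, and no P-RPC array reached the threshold. Tpm2 rose at least 13.6-fold in rESC-RPC1 (log2 5.22 ± 0.60, adjusted p = 3.7e-05) and at least 16.0-fold in rESC-RPC2 (log2 5.46 ± 0.60, adjusted p = 2.4e-05). The second probe set of the gene, 1392976_at, rose from a mean of 36.1 ± 2.32 in P-RPC to 192 ± 148 in rESC-RPC1 and 504 ± 226 in rESC-RPC2.

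**Figure D2:**
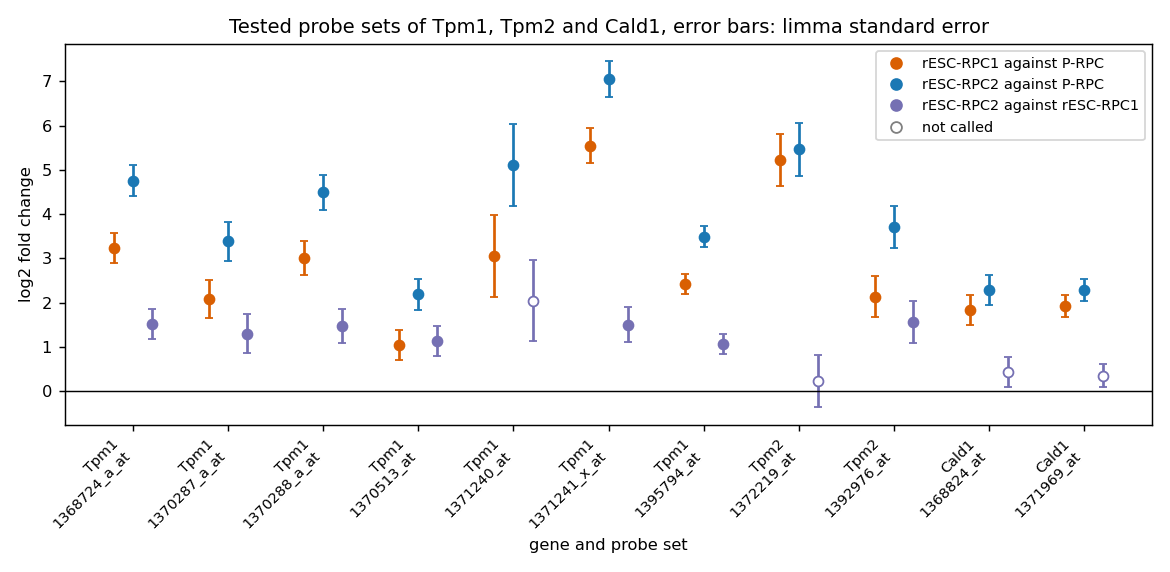
Log2 fold change (with limma standard errors) of each tested probe set of Tpm1, Tpm2 and Cald1 in 3 comparisons, from the fit over 17048 probe sets. Filled points passed the call rule and open points did not. All 11 probe sets were called against P-RPC, and those of Tpm2 differed in their call between the kinds of rESC-RPCs.

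In rESC-RPC1 against P-RPC, 7 of the 8 tested members were called higher, and Acta1 was not called. Over all 9946 genes 12.0% were called higher. Tagln, Cnn1 and Tpm2 passed the filter through rESC-RPC arrays alone, which favours a call in this direction. The median log2 fold change was 3.23 over the tested members and -0.0045 over all genes, and with signals under the threshold raised to it the member median was 2.70. Every rESC-RPC1 array was above every P-RPC array for 7 of the 8 members, and for 32.7% of all genes. Without rESC-RPC1 replicate 3, all 7 stayed called, while the log2 fold change was 1.47 for Acta2, 2.63 for Myl9, 8.17 for Tagln and 4.50 for Tpm2, and without replicate 2 it was 5.87 for Tpm2. Over probe sets, 15 of the 16 tested ones of these genes were called higher, where 11.3% of all probe sets were. The 15 include 1370513_at and 1371240_at of Tpm1, which reached the threshold on only 1 rESC-RPC1 array each.

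In rESC-RPC2 against P-RPC, all 8 tested members were called higher, beside 10.7% of all genes. Their median log2 fold change was 4.49, or 3.66 with low signals raised to the threshold, and that of all genes was -0.02. The arrays did not overlap for any of the 8, as was the case in this direction for 35.3% of all genes. All 16 tested probe sets were called higher, beside 11.4% of all. Both comparisons use the same 3 P-RPC arrays. No member was called lower by limma in either comparison, and none was lower at an unadjusted p under 0.05 (0 of 8 each), where 9.50% and 12.9% of all genes were called lower in rESC-RPC1 and rESC-RPC2. The methods' t-test likewise called 0 members lower. Tagln, Cnn1 and Tpm2 passed the filter through rESC-RPC arrays alone. They could hardly be called lower than P-RPC, so the absence of lower calls is no test for them.

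**Figure D3:**
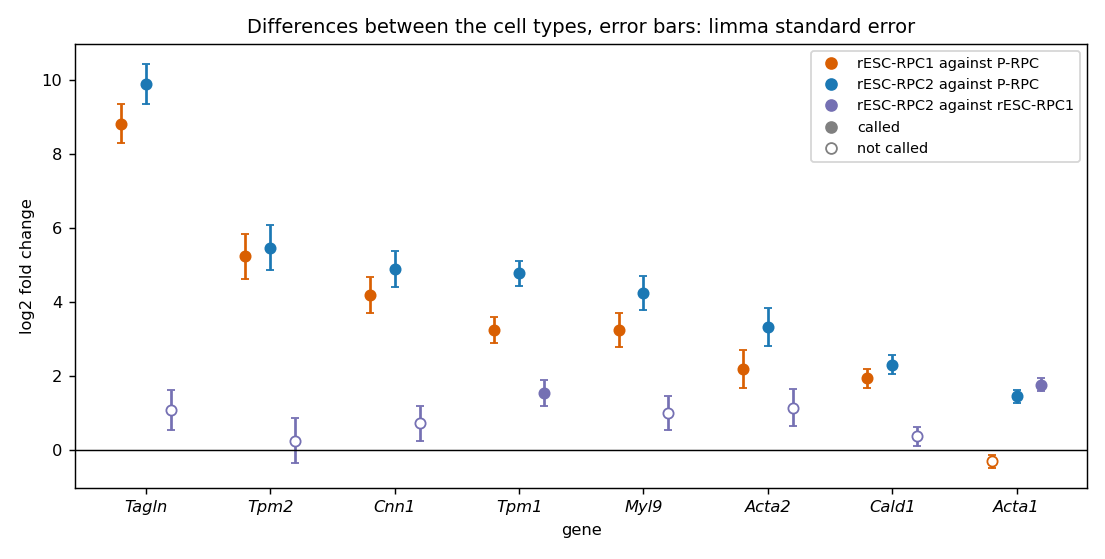
Log2 fold change of the 8 tested contractile genes in the 3 comparisons, with limma standard errors. Filled points were called and open points were not. The values of Tagln, Tpm2 and Cnn1 against P-RPC are fitted to P-RPC signals under the threshold, and Acta1 and Tpm1 are the filled points between the kinds of rESC-RPCs.

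Between the kinds of rESC-RPCs, all 8 fitted differences pointed to higher levels in rESC-RPC2, but 6 of them did not pass. Acta1 was called, at 2.73-fold or more with rESC-RPC1 set to the threshold (log2 1.75 ± 0.17, adjusted p = 2.5e-05). Tpm1 was called at 2.89-fold (log2 1.53 ± 0.34, adjusted p = 0.0043). These 2 of the 8 members were also those whose arrays did not overlap, a share near the 24.2% of all genes. Over all genes 5.02% were called higher and 9.24% lower in rESC-RPC2, and the member median was 1.03 on the log2 scale beside -0.03 for all genes. No member was called lower, and 0 of 8 were lower at an unadjusted p under 0.05.

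For the members not called, the intervals were wide. The log2 difference was 1.07 for Tagln (95% confidence interval from -0.12 to 2.26), 1.14 for Acta2 (0.01 to 2.26) and 0.99 for Myl9 (-0.03 to 2.02). It was 0.71 for Cnn1 (-0.36 to 1.77), 0.36 for Cald1 (-0.21 to 0.93) and 0.24 for Tpm2 (-1.10 to 1.57). The calls depended on single arrays. Without rESC-RPC1 replicate 3, the array with the highest contractile signals of its group, 6 members were called higher in rESC-RPC2: Tagln, Acta2, Cnn1 and Myl9 joined Acta1 and Tpm1. Their log2 differences were then larger, at 1.71, 1.84, 1.29 and 1.60. Over probe sets, 8 of the 16 were called higher in rESC-RPC2, beside 6.38% of all probe sets. They comprised 6 of the 7 of Tpm1, the one of Acta1 and the fainter probe set of Tpm2, 1392976_at (log2 1.57 ± 0.47), whereas the brighter one gave 0.24 ± 0.60.

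Among the arrays of each kind of rESC-RPCs most members kept the same order, which was not so in P-RPC, where 1, 2 and 5 of the 8 tested members were highest on replicates 1, 2 and 3. In rESC-RPC1, replicate 3 was the highest and replicate 2 the lowest for all 8 tested members, and the full order of the 3 arrays was the same for all 8, against 26.9% of all tested genes. This order, like the one for rESC-RPC2 below, was read from the members themselves, so that the share of all genes is a description and no test. The highest array exceeded the lowest 5.06-fold for Tagln, 5.45-fold for Acta2, 5.17-fold for Myl9 and 6.64-fold for Tpm2, and by less for Cnn1 (3.71-fold), Tpm1 (3.22-fold) and Cald1 (2.50-fold). Over all genes detected on the 3 arrays the median of this ratio was 1.25. For Acta1 the ratio was 1.13.

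In rESC-RPC2, 7 of the 8 followed 1 order, with replicate 1 highest and replicate 2 lowest, against 23.6% of all genes. The coefficient of variation over its arrays had a median of 30.4% for the 8 members and 8.74% for all detected genes, and was 1.01% for Acta1. In rESC-RPC1 it was 78.1% for the 7 detected members and 11.5% for all detected genes. In P-RPC the 4 detected members (Acta2, Myl9, Tpm1 and Cald1) had a median of 7.81%, close to the 6.66% of all detected genes.

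**Figure D4:**
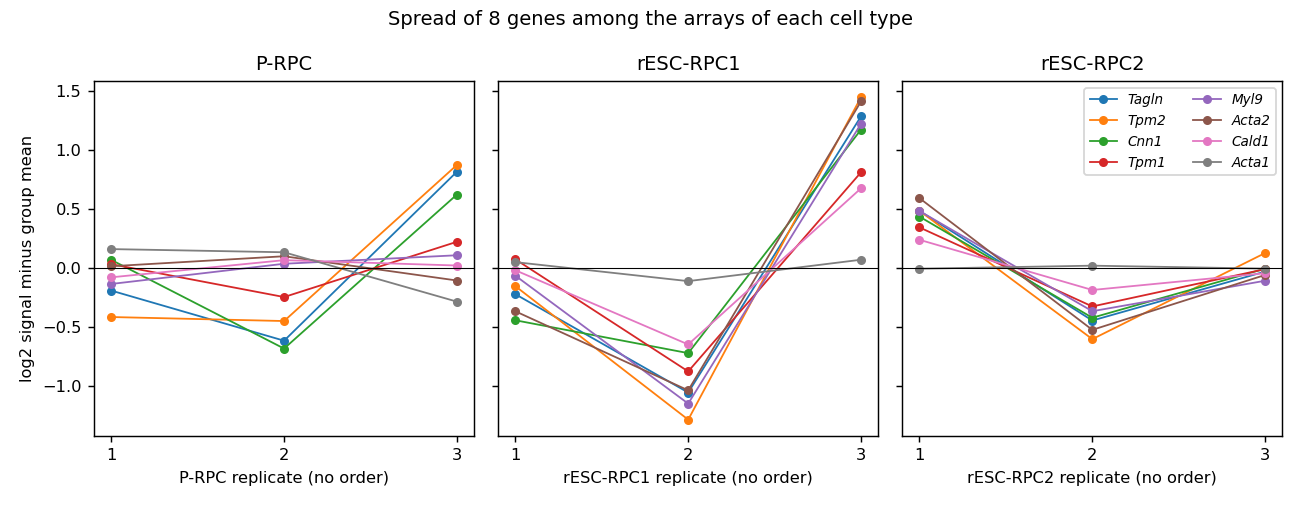
Log2 signal of each tested contractile gene on each array, less the mean of its group, in the 3 cell types. The replicates have no order and the lines only join the values of a gene. In rESC-RPC1 replicate 3 was highest for all 8 genes and replicate 2 lowest, and Acta1 stayed close to 0.

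As a description over 9 arrays that share their group means, the log2 signals of the 7 members other than Acta1 correlated pairwise with a Pearson r from 0.92 to 1.00 (median 0.98, 21 pairs). After the group means had been taken off, r still ran from 0.78 to 1.00, with a median of 0.91. Pairs with Acta1 had a median of 0.46 before and 0.12 after.

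Genes outside the set with the most similar profile to Tagln over the 9 arrays were Anxa1 (r = 0.999), Nog (0.997), Adamts9 (0.996), Gypc (0.995) and LOC100910973 (0.995). Anxa1, a phospholipid-binding protein, had means of 231 ± 47.5, 3215 ± 917 and 4445 ± 1059 (P-RPC first, then the rESC-RPCs in order). Nog encodes noggin, a secreted BMP antagonist, with means of 70.0 ± 11.7, 1587 ± 462 and 2366 ± 153. Closest to Acta2 were Creb3 (0.997), Vgf (0.996), Rexo2 (0.992), Nars1 (0.990) and Aldh18a1 (0.988). These profiles share the step between P-RPC and culture.

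The wider contractile and focal adhesion machinery of smooth muscle rose less uniformly. Of 30 listed genes 27 had a probe set of their own and 18 were tested. In rESC-RPC1 against P-RPC 9 were called higher and 2 lower, in rESC-RPC2 against P-RPC 10 and 3, and in rESC-RPC2 against rESC-RPC1 1 and 2. Their median log2 fold changes were 1.03, 1.13 and -0.03. Over all genes 12.0%, 10.7% and 5.02% were called higher in these comparisons, and 9.50%, 12.9% and 9.24% lower. The counts called lower, and both counts between the kinds of rESC-RPCs, were near these shares.

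Vcl (vinculin, which ties actin to focal adhesions) rose in both, from 405 ± 68.1 in P-RPC to 3418 ± 1325 and 3716 ± 699 (log2 3.02 ± 0.26 and 3.19 ± 0.26). Csrp2, a LIM protein found in smooth muscle and also in embryonic tissues, fell, with log2 fold changes of -2.30 and -2.95. Pdlim3, an alpha-actinin partner at the Z line, rose at least 14.4-fold in rESC-RPC1 and at least 3.50-fold in rESC-RPC2. Unlike the contractile members, Pdlim3 and Mylk, the myosin light chain kinase, were lower in rESC-RPC2 than in rESC-RPC1, at log2 -2.04 ± 0.19 and -2.06 ± 0.15. Mylk was also called lower in rESC-RPC2 than in P-RPC (log2 -1.08 ± 0.15). In rESC-RPC1 against P-RPC it was not called (log2 0.98 ± 0.15). Nexn, an actin-binding protein, was highest in rESC-RPC2, with means of 51.0 ± 14.5, 258 ± 157 and 791 ± 123. Des, the desmin filament gene of muscle, was under the threshold on all arrays, from 17.2 to 81.8.

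**Figure D5:**
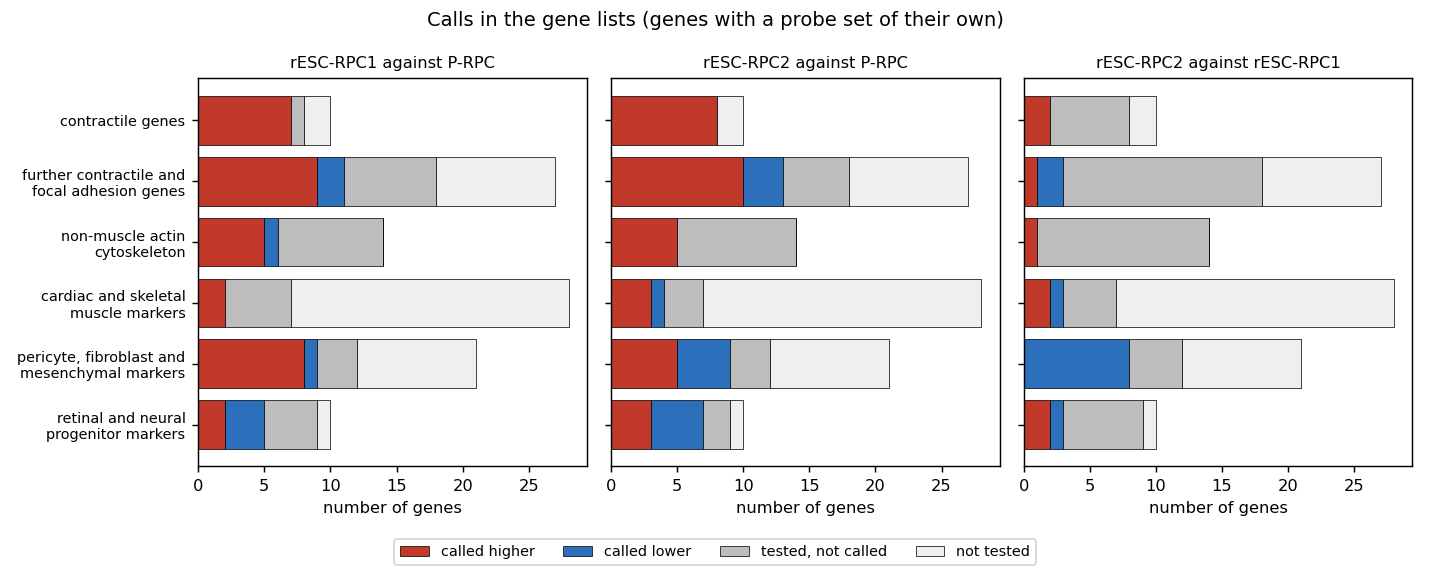
Number of genes called higher, called lower, tested without a call and not tested in 6 of the gene lists (the endothelial list is not drawn), for the 3 comparisons, counting genes with a probe set of their own. Among the 10 contractile genes, 7 and 8 were called higher against P-RPC and 2 between the kinds of rESC-RPCs. In the pericyte, fibroblast and mesenchymal list 8 genes were called lower in rESC-RPC2 than in rESC-RPC1.

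Among the regulators, Srf itself differed little: its means were 841 ± 44.1, 847 ± 108 and 1053 ± 78.5, and its log2 fold changes against P-RPC were 0.01 ± 0.11 and 0.32 ± 0.11, neither called. Myocd, encoding myocardin, was under the threshold on all arrays, from 22.4 to 43.5.

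Mef2c, a MADS-box factor of muscle and neurons, rose by 4.05 ± 0.13 and 4.10 ± 0.13 on the log2 scale in rESC-RPC1 and rESC-RPC2. Klf4, which represses contractile genes when smooth muscle cells lose their differentiated state, was under the threshold on all P-RPC arrays and rose at least 6.62-fold and at least 4.27-fold. Fhl1, a LIM cofactor, had log2 fold changes of 0.97 ± 0.10 and 1.01 ± 0.10, of which the second reached the fold needed for a call. Hey2, a Notch target, fell by 1.35 in rESC-RPC2. Elk3, a partner of SRF, and Prrx1, a mesenchymal homeobox gene, were called higher than in P-RPC in rESC-RPC1 and not in rESC-RPC2, and both were called lower in rESC-RPC2 than in rESC-RPC1 (log2 -1.63 ± 0.25 for Elk3, and at least 1.28-fold for Prrx1, which was under the threshold on all rESC-RPC2 arrays).

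The non-muscle counterparts, which serve the actin cytoskeleton of most cells, were all 14 detected on every array. Of these, 5 were called higher in each kind of rESC-RPCs than in P-RPC, beside 12.0% and 10.7% of all genes. Cnn2, the calponin of non-muscle cells, rose by 3.69 ± 0.41 and 4.55 ± 0.41 on the log2 scale. Actn1, a crosslinker of actin at adhesions, rose by 2.38 ± 0.22 and 3.02 ± 0.22, and Myl12a, a non-muscle light chain, by 1.03 ± 0.15 and 1.10 ± 0.15. Tagln3, the neuronal relative of Tagln, fell by 2.44 in rESC-RPC1 and was higher in rESC-RPC2 than in rESC-RPC1 (1.63 ± 0.16). The median over the 14 genes against P-RPC was 0.55 for rESC-RPC1 and 0.82 for rESC-RPC2, under the 3.23 and 4.49 of the contractile members, a difference that was not tested.

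Striated muscle markers were mostly undetected. Of 28 cardiac and skeletal genes with a probe set of their own, 26 were under the threshold on all P-RPC arrays, 21 on all rESC-RPC1 arrays and 19 on all rESC-RPC2 arrays. Myod1 (1.37 to 4.15 over the 9 arrays) and Myog (5.74 to 82.5), the myogenic factors of skeletal muscle, were among them in every cell type. Myh7, the slow and cardiac myosin heavy chain, was highest in rESC-RPC2, as Acta1 was, with means of 37.5 ± 9.12, 98.5 ± 10.6 and 549.8 ± 69.3, at least 4.46-fold over each of the others. It was also called higher in rESC-RPC1, but all arrays of rESC-RPC1 and P-RPC were under the threshold. Myh8, a perinatal heavy chain, rose against P-RPC at least 1.35-fold in rESC-RPC1 and at least 1.51-fold in rESC-RPC2. Myh2 was at least 1.12-fold higher in rESC-RPC2 than in rESC-RPC1. Tnni3, cardiac troponin I, was lower in rESC-RPC2 than in P-RPC by 2.48-fold or more. Nppa, the atrial peptide gene, had means of 81.5 ± 6.98, 87.2 ± 16.8 and 157 ± 7.68 and was not called, and Tnnt2, cardiac troponin T, spread from 3.13 to 218 and was not tested. Actc1 had no probe set of its own.

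Most tested mesenchymal genes separated the kinds of rESC-RPCs in the opposite way to Acta1 and Tpm1. Of 21 pericyte, fibroblast and mesenchymal markers 12 were tested, and against P-RPC 8 were called higher and 1 lower in rESC-RPC1 and, in rESC-RPC2, 5 higher and 4 lower, while 8 were called lower in rESC-RPC2 than in rESC-RPC1. Over all genes 12.0% and 10.7% were called higher and 9.50% and 12.9% lower against P-RPC. Between the kinds of rESC-RPCs 9.24% of all genes were called lower in rESC-RPC2. Much of the list was not detected: 10 of the 21 were under the threshold on all P-RPC arrays, 8 on all rESC-RPC1 arrays and 12 on all rESC-RPC2 arrays. Col1a2, a chain of type I collagen, had a mean of 115 ± 15.0 in P-RPC, rising to 14284 ± 4928 (rESC-RPC1) and 3129.7 ± 739 (rESC-RPC2). Col3a1 was at 65.1 ± 9.98, 4244 ± 854 and 157 ± 23.7, and Postn (periostin) fell at least 12.6-fold from rESC-RPC1 to rESC-RPC2. Sparc rose by 2.94 ± 0.15 and 2.17 ± 0.15 and Fn1, fibronectin, by 2.88 ± 0.22 and 2.41 ± 0.22 on the log2 scale.

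The array means over the whole mesenchymal list ran from 6.75 to 6.91 (log2) in P-RPC, 7.52 to 8.23 in rESC-RPC1 and 6.58 to 6.89 in rESC-RPC2, while those over the 10 contractile genes ran from 6.25 to 6.62, 8.56 to 10.06 and 9.82 to 10.44. In rESC-RPC1, 10 of the 12 tested mesenchymal markers shared the array order of the contractile members (replicate 3 highest, replicate 2 lowest), as did 11 of 14 non-muscle counterparts and 14 of 18 further contractile genes. In rESC-RPC2 the order of the contractile members was shared by 5 of 12 mesenchymal markers, 12 of 14 non-muscle counterparts and 11 of 18 further contractile genes. Pdgfrb, a receptor of pericytes, was tested in no comparison, with signals from 17.2 to 64.4 in P-RPC, 70.9 to 167 in rESC-RPC1 and 71.0 to 97.7 in rESC-RPC2. Rgs5, which marks retinal pericytes, was above the threshold only in P-RPC (152 ± 28.2, against 8.79 ± 3.81 and 22.3 ± 10.3). The part of mesenchymal cells in the contractile signals was not tested.

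The endothelial marker Pecam1 ranged from 3.39 to 41.0 over the 9 arrays. Of the 9 endothelial genes with a probe set of their own, 8 were under the threshold on all arrays of each kind of rESC-RPCs, and 7 on all P-RPC arrays. Kdr, a receptor for VEGF, was the one tested, and it fell against P-RPC, with log2 fold changes of -3.43 and -5.70. Its means were 6480 ± 209, 648 ± 309 and 125 ± 5.49, so that in P-RPC it was far above Pecam1. Whether Kdr followed endothelial cells here was not tested. Among the retinal and neural markers, Gfap, the filament of astrocytes and reactive glia, was highest in rESC-RPC1 (59.1 ± 10.4, 3689 ± 194 and 979 ± 442). Tubb3, a neuronal tubulin, was highest in rESC-RPC2 (3182 ± 249, 2512 ± 626 and 6729 ± 172), and Six6 fell against P-RPC, with log2 fold changes of -3.36 and -1.81. In rESC-RPC1, 1 of the 9 tested retinal and neural markers shared the array order of the contractile members.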

How the data were processed

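RNA of 3 samples per cell type, biological replicates by the labels, was hybridized to 1 array per sample. Each deposited value is the intensity of 1 probe set, a MAS 5.0 signal that the authors gave without a log. The version of MAS5 is not stated and no detection calls were used. The mean after trimming 2% from each end was 500.0 on every array, and the deposited signals were not rescaled. Signals under 1 were set to 1 before log2 was taken.

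Of 31099 probe sets, 57 controls were left out, 20826 carried 1 gene symbol, 436 several and 9780 none. Only probe sets with 1 symbol were used for genes, which gave 14217 genes. The probe set of highest mean represented a gene, and the filter on low values was then applied to it, leaving 9946 genes. The filter, unaware of group, needs 3 arrays at the threshold, which a gene high in a single cell type can meet. Tagln, Cnn1 and Tpm2 met it through rESC-RPC arrays alone, and Acta1 met it only with the rESC-RPC2 arrays. A fit over 17048 probe sets was made in the same way.

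limma 3.58.1 in R 4.3.3 (lmFit, then eBayes with trend) was fitted to all 9 arrays with 1 mean per group and no covariate. The SD over 3 arrays is given for signals and the moderated standard error for log2 fold changes. Where all 3 arrays of a group were under the threshold, the fold is a lower bound taken from it. The number of arrays limits the precision. The fit was tested on simulated data. Alternatives were median centring, quantile normalization, a stricter filter (6 of 9 arrays) or none, low signals raised to the threshold, a pseudocount of 16, the mean of all probe sets of a gene, probe sets without a shared suffix, limma without the trend, the methods' t-test, the replicate number as a block, and each array left out. Named genes were all members, up to 3 called genes of smallest adjusted p per list and comparison, fixed defining markers, and the 5 genes most correlated with Tagln and with Acta2. The members and lists were chosen with earlier results of these data known. Promoters came from a RefSeq table of GRCr8. The counts of 1 gene list are not reported here.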

Additional observations from a re-analysis of the deposited data

Results flagged for a closer look

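The difference between the log2 fold changes of Acta1 against P-RPC in rESC-RPC2 and in rESC-RPC1 was 1.75 in the limma fit, and that of Tpm1 was 1.53. Both differences passed the test between the kinds of rESC-RPCs.

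Probe set 1370856_at, which is assigned to Acta2 and Actc1 together and enters no comparison of genes, had a mean signal of 396 in rESC-RPC2, where all 3 arrays were above the threshold and above the P-RPC arrays.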

How the results depend on the processing

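Against P-RPC, leaving out any 1 array or using the replicate block gave 7 members called higher in rESC-RPC1 and 8 in rESC-RPC2, as reported. The further contractile genes called higher in rESC-RPC1 against P-RPC, 9 as reported, were 5 by the methods' t-test after adjustment and ranged from 7 to 11 with 1 array left out. In rESC-RPC2 against P-RPC they were 10 as reported, 6 with low signals raised to the threshold, and 7 to 11 with 1 array left out. Between the kinds of rESC-RPCs the members called higher in rESC-RPC2, 2 as reported, were 1 under the stricter filter, under which Acta1 was not tested, and 1 by the adjusted t-test, where Tpm1 was lost. They ranged from 2 to 6 with 1 array left out, with 6 reached without rESC-RPC1 replicate 3, where the log2 differences were 1.71 for Tagln, 1.84 for Acta2, 1.29 for Cnn1 and 1.60 for Myl9. The further contractile genes called there, 1 as reported, were 0 under the stricter filter, 0 by the adjusted t-test and 1 to 2 with 1 array left out. The difference of Tpm2 ranged from -0.41 (without rESC-RPC1 replicate 2) to 0.96 (without rESC-RPC1 replicate 3) with 1 array left out, and was -0.0034 without rESC-RPC2 replicate 1. Acta2 in rESC-RPC1 against P-RPC was not called by the adjusted t-test, nor was Cald1 with the mean of all its probe sets (log2 0.89). The causes of these changes were not tested.

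Over 24 results of single members and 21 alternatives, 491 of 501 values kept their direction and side of the threshold. Same-numbered arrays of different groups did not deviate together: of 9 pairs 1 correlated above 0.1 (range -0.04 to 0.28), so that the numbers were not taken as pairing. With the replicate number as a block, 3 members were called higher in rESC-RPC2 than in rESC-RPC1, Tagln being added, and 3 of the 9 arrays were closest to their own number. Signals near the threshold (Acta1, Acta2 in P-RPC) limit what fold can be measured.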
